A study of Homo sapiens with 12 samples.

Results

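Regions bound by ARID1A or marked by H3K4me3 were mapped at 9 genes for epithelial integrins and laminin-332. ITGB6, ITGB4, ITGA6, ITGA2, ITGA3, ITGB1 and ITGAV encode integrin chains, and LAMA3 and LAMB3 encode laminin chains. The genes were taken by name from the 19618 protein-coding genes of GENCODE 44. Every region at their promoters, within 1 kb on either side of an annotated protein-coding transcription start site (TSS), and over the gene body plus 50 kb on each side (the locus) was included. The wide distal region near ITGB6 was named when the genes were chosen.

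The assay was CUT&RUN, which releases antibody-bound chromatin with a tethered nuclease and sequences the fragments. Every library came from RT112, an established line of human bladder transitional cell carcinoma without an ARID1A mutation per the study, grown in DMEM with 10% serum, with no drug or genotype contrast. ARID1A, a DNA-binding member of SWI/SNF chromatin remodellers, was profiled with 2 antibodies, named here by their suppliers Abcam and CST, beside H3K4me3, a histone mark of active promoters, and IgG, with 3 replicates each. IgG regions were not analysed here, so no background from the control antibody stands beside the values. The authors' lists were merged over replicates and gave positions only, so replicate error cannot be given, sequencing depth is unknown, and a missing region may lie just under the calling threshold. On chromosomes 1 to 22 and X they held 37501 Abcam, 32932 CST and 9765 H3K4me3 regions. Regions of both ARID1A antibodies lay at the promoters of 9 of 9 epithelial markers and 5 of 5 luminal urothelial markers, and of 0 of 13 markers of leukocytes, fibroblasts and endothelium, of which LUM, a fibroblast gene, had Abcam and H3K4me3.

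Integrins are surface receptors made of an alpha and a beta chain. The beta-4 chain (ITGB4) pairs with alpha-6 (ITGA6) in hemidesmosomes, the junctions that fasten epithelium to its basement membrane. The beta-1 chain (ITGB1) pairs with alpha-2 (ITGA2), a collagen receptor, alpha-3 (ITGA3), a laminin receptor, and alpha-6. The alpha-v chain (ITGAV) pairs with beta-6 (ITGB6) in an epithelial receptor that activates latent TGF-beta. Laminin-332, the ligand of these laminin receptors under stratified and transitional epithelia, contains the chains of LAMA3 and LAMB3.

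Promoter sequences are shown for the member with the fewest G and C bases, ITGB6, for a GC-rich one, ITGA2, and for both laminin genes, LAMB3 at 1 of its 3 RefSeq starts, whose stretches hold an AP-1 word. They are RefSeq sequences (GRCh38.p14) before an annotated start, written 5′ to 3′ on the strand of the gene and ending where GENCODE exons begin. Capitals mark the AP-1 word (TGAGTCA or its reverse complement) and the SP/KLF word (GGGCGG or its reverse complement). RefSeq promoters matched 7 of the 9 genes, not ITGA3 and ITGB4.
ITGB6 promoter, chr2:160200314-160200522, minus strand: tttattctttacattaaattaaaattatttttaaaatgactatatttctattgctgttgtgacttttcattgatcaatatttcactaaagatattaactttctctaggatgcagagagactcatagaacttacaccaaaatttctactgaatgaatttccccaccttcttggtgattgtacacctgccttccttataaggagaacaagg
ITGA2 promoter, chr5:52989102-52989351, plus strand: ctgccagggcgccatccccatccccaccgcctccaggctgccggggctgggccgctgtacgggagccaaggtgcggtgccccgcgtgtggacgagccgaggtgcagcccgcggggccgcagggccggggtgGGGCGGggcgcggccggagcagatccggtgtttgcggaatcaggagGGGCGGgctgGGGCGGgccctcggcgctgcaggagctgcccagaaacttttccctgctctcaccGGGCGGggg
LAMA3 promoter, chr18:23872770-23873019, plus strand: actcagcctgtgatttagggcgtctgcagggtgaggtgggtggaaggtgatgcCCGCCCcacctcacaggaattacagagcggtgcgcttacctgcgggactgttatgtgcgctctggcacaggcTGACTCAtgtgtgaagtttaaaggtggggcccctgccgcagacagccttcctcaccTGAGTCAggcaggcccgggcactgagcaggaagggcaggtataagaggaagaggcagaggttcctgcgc
LAMB3 promoter, chr1:209651395-209651624, minus strand: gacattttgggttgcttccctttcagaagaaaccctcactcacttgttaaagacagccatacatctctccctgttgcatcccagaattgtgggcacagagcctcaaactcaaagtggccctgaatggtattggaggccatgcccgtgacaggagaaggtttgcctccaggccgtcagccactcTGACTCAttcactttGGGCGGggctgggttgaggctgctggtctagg

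The bases before these starts differed widely. In the 250 bases before the start of ITGB6, GC content was 30.0%, lower than in all but 1.52% of 35116 RefSeq promoters, whose median was 58.0%. ITGB6 had 0 CpG dinucleotides in that stretch, as did 6.06% of promoters, against a median of 11. ITGA2 lay near the other end, with more GC (76.4%) than 91.9% of promoters, 26 CpG dinucleotides and 4 SP/KLF words. The ITGB1 promoter at chr10:32958231-32958480 had 78.4% GC and 32 CpG dinucleotides. An SP/KLF word was present in 42.6% of RefSeq promoters and an AP-1 word in 4.20%. The LAMA3 stretch held 2 AP-1 words and the printed LAMB3 stretch 1. None was found in the other 2 LAMB3 promoters, which lie farther upstream, or in the ITGB6, ITGA6, ITGA2, ITGB1 and ITGAV stretches. A match to these letters is a description of the sequence and not a bound site.

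All 9 genes carried regions of both ARID1A antibodies and of H3K4me3 at a promoter. Among all protein-coding genes, an Abcam region lay at a promoter of 46.7%, a CST region at 41.9%, both at 38.2%, H3K4me3 at 53.1% and all 3 at 33.8%. Among the 10409 genes with H3K4me3, 63.8% had both antibodies. Abcam regions that a CST region overlaps are called shared here, and each of the 9 promoters had one. The 9 genes were proposed with results of these lists known, so the count is a description of them.

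Other genes of cell adhesion were marked about as often as genes at large. Both antibodies were found at 25 of 64 promoters (39.1%) over 6 lists, close to the 38.2% of all genes. Of the 9 other integrins outside blood cells, 2 had both antibodies, namely ITGB5 and ITGB8, which pair with alpha-v. ITGA5, ITGA10 and ITGA11, chains of fibronectin and collagen receptors, had no region of either antibody. Of 10 leukocyte and platelet integrins, 1 had both antibodies (ITGB2, without H3K4me3), while ITGA4, ITGAD and ITGAE had no ARID1A region.

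The other laminin chains divided evenly, with both antibodies at 5 of 10. Among these were LAMA5 and LAMC1, with Abcam regions up to 3726 and 3971 bp wide, and LAMA2, without H3K4me3. LAMA1, LAMA4 and LAMB4 had none. Both antibodies without H3K4me3 at any promoter, as at LAMA2 and ITGB2, were found at 4.41% of all genes and at 0 of the 9.

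Of 4 hemidesmosome partners, 2 had both antibodies, PLEC and DST, which encode the linkers plectin and dystonin. CD151, a tetraspanin bound to laminin-binding integrins, and COL17A1, a transmembrane collagen of hemidesmosomes, had H3K4me3 without ARID1A. Among 19 adaptors that join integrins to actin or signalling, 11 had both antibodies. By width summed over their starts and both antibodies, PTK2 (focal adhesion kinase), TNS3 and LIMS1 led. FERMT3, ILK and PARVA had no ARID1A region, and ILK had H3K4me3. Of 12 matrix ligands and partners, 4 had both, among them LTBP1, TNC and AGRN. The basement membrane genes COL4A1, COL4A2 and HSPG2 had H3K4me3 without ARID1A. COL4A1 and COL4A2 overlap at their 5′ ends and have the same width of H3K4me3 there (4089 bp), so they are not separate observations.

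**Figure D1:**
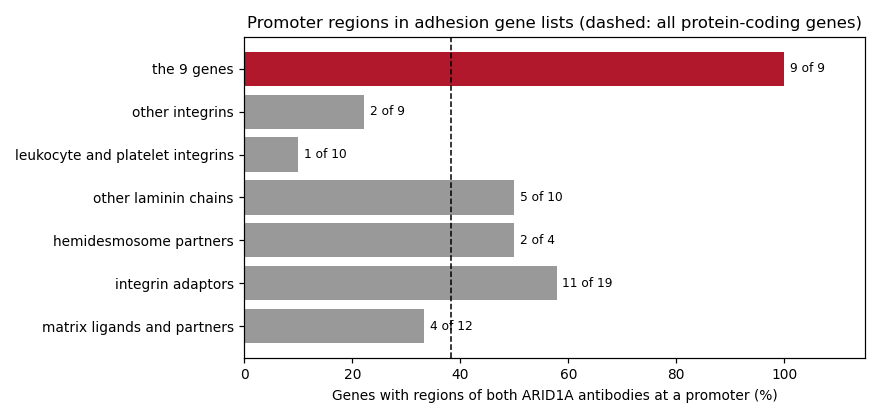
Share of genes in each list with regions of both ARID1A antibodies at a promoter, in percent on the horizontal axis, with counts beside the bars and a dashed line at the 38.2% of all protein-coding genes. The bar of the 9 genes reaches 9 of 9, and the integrin lists outside them stand at 2 of 9 and 1 of 10.

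At the hemidesmosome receptor, the promoter of ITGB4 carried an Abcam region of 1811 bp, a CST region of 3709 bp and an H3K4me3 region of 4682 bp. A second Abcam region of 1488 bp lay just inside the gene, under the same CST region. At ITGA6, the promoter regions were 2187 bp (Abcam), 1198 bp (CST) and 4539 bp (H3K4me3). Both antibodies together covered 70.2% of the H3K4me3 region at ITGB4 and 60.3% of that at ITGA6. The pair thus had more of its H3K4me3 under ARID1A than the median of 43.3% over the 9 genes. The median over 9162 H3K4me3 regions at any promoter was 32.0%. Those include promoters without ARID1A, whereas all 9 genes have both antibodies, so the 2 sets are unlike.

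At the chains of the collagen and laminin receptors, ITGA3 had the widest H3K4me3 region of the 9 genes, at 10458 bp, wider than 99.8% of its list. Its promoter regions of 3897 bp (Abcam) and 4022 bp (CST), with further regions inside the gene, covered 36.7% of it jointly. At ITGA2, the ARID1A regions of 3753 bp (Abcam) and 2701 bp (CST) had their middles at -1255 and -1141 bp from the TSS, so most of their length lay upstream. At ITGB1, the start used by 22 transcripts (15 TSSs) carried 1750 bp of Abcam, 2903 bp of CST and 5974 bp of H3K4me3. That start lies 34183 bp inside the most upstream protein-coding start, at which no region of any list was found.

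The receptor that activates TGF-beta had ARID1A promoter regions of at most 1924 bp. ITGAV carried 1924 bp (Abcam), 1251 bp (CST) and 3760 bp (H3K4me3). ITGB6 had 2 Abcam regions, of 1263 and 626 bp, under a single CST region of 1753 bp, with 3316 bp of H3K4me3. At ITGB6, H3K4me3 reached 347 bp upstream and 2969 bp downstream of the TSS. H3K4me3 reached farther into the gene than upstream in 9 of 9 members, against 81.7% of genes with H3K4me3.

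Of the 9 genes, LAMB3 had the widest Abcam promoter region. It was 7749 bp wide and covered its whole H3K4me3 region of 5166 bp, which 2 CST regions, the wider of 4223 bp, covered to 99.1%. All 3 lists had a region that began at the same base inside LAMB3, chr1:209648900, 3525 bp from the TSS. Such a start was shared by all 3 lists at 6 places in the genome.

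LAMA3 carried ARID1A at 3 of its 8 groups of starts and H3K4me3 at 1. Its first start, at chr18:23689453, used by 2 transcripts, had 1214 bp of Abcam and 772 bp of CST without H3K4me3. All 3 lists met at the internal start at chr18:23873020, 183567 bp farther on, used by 2 shorter transcripts. There the regions were 3388 bp (Abcam), 3548 bp (CST) and 2994 bp (H3K4me3), and the promoter sequence with 2 AP-1 words shown above ends at this start. A further internal start at chr18:23884773 had both antibodies without H3K4me3, as did a start of ITGB1 at chr10:32963283. Start groups join TSSs that lie no more than 1 kb from the next one. Over all genes, 7.89% of internal start groups carried all 3 lists. Of the 20 internal groups of the 9 genes, 2 did so, at LAMA3 and ITGB1.

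**Figure D2:**
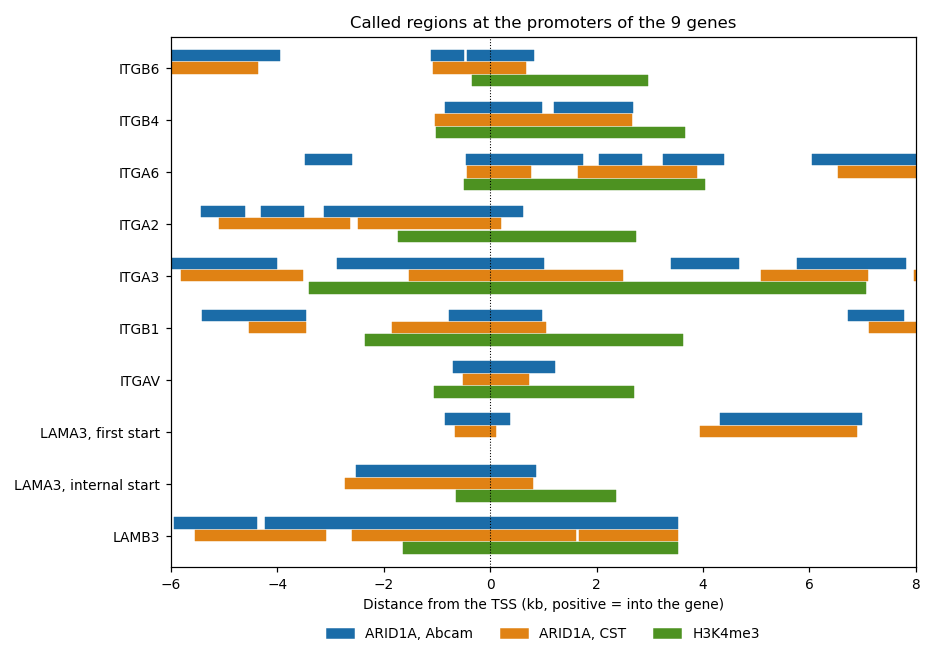
Regions at each promoter, coloured blue for Abcam, orange for CST and green for H3K4me3, with the distance from the TSS in kb on the horizontal axis and 1 row per start, LAMA3 shown at both of its main starts. H3K4me3 extends farther to the right of the TSS than to the left at all 9 genes, is absent at the first LAMA3 start, and is widest at ITGA3 (10458 bp).

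Across the loci, the 9 genes held 69 shared regions. Of these, 13 lay at a promoter of the gene itself, 9 of them with H3K4me3, 2 at promoters of other genes, and 54 overlapped no protein-coding promoter and are called distal. The distal ones lay in introns by their middles in 32 cases, in an exon in 1 and between genes in 21, and 4 touched H3K4me3. In the loci 69 of 80 Abcam regions met a CST region (86.2%, 95% exact interval 76.7 to 92.9), against 76.3% of the whole list. Conversely, 67 of 71 CST regions met an Abcam region (94.4%, 86.2 to 98.4), against 87.5%. H3K4me3 overlapped 15 of the 69 (21.7%, 12.7 to 33.3), near the 22.4% of all shared regions. These exact (Clopper-Pearson) intervals treat regions as independent and cover counting error only.

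Shared regions were dense at most of these loci. The median was 4.46 per 100 kb over the 9 genes against 1.40 over all genes, and 7 of 9 lay above 2.75 per 100 kb, as did 25.0% of all genes. ITGB4 was highest at 5.86 per 100 kb, followed by ITGA6 at 5.58, ITGB1 at 4.58, ITGB6 at 4.49, ITGA3 at 4.46, ITGA2 at 3.89 and ITGAV at 3.14. LAMA3, at 2.73, fell just short of the limit, and LAMB3, at 1.45, was near the median of all genes. The LAMB3 locus had 2 shared regions, of which 1 was the wide promoter region. By the share of the locus covered by both antibodies, all 9 genes were among the top 25.0%, with a median of 8.23% against 1.80%. Promoter regions count in both measures, and each of the 9 genes has a shared one. The values over all genes include genes without ARID1A at a promoter, and none is given for genes with both antibodies.

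**Figure D3:**
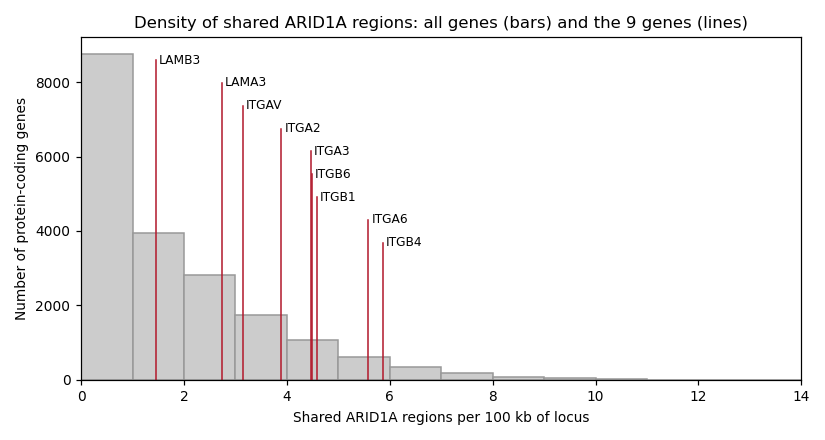
Number of protein-coding genes (vertical axis) by shared ARID1A regions per 100 kb of locus (horizontal axis, bars 1 unit wide), with a red line at the value of each of the 9 genes. LAMB3 (1.45) stands near the bulk of genes, and ITGA6 (5.58) and ITGB4 (5.86) stand farthest to the right.

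The distal regions lay mostly before the genes or inside them, and rarely after them. In the equal flanks of 50 kb, the 9 genes had 26 distal shared regions upstream and 2 downstream, with 26 more in the gene bodies. All 9 genes had more upstream than downstream, against 22.3% of all genes and 28.5% of genes with both antibodies at a promoter. These shares count genes with equal numbers in both flanks as not upstream. Of all 19618 genes, 4370 had more upstream and 4116 more downstream, and the rest had equal numbers. Of the 7503 genes with both antibodies, 2141 had more upstream and 1820 more downstream. Over all genes, the summed counts were 10154 upstream and 9589 downstream. The pattern was looked for after the regions had been listed. At ITGB4 the 5 upstream regions lay inside the neighbouring gene SAP30BP, which has ARID1A and H3K4me3 at a promoter of its own, so that they cannot be assigned to ITGB4 by position. Neighbours with both antibodies at a promoter were SAP30BP, H3-3B and UNK beside ITGB4, PDK1 beside ITGA6 and TTC39C beside LAMA3. MOCS2 near ITGA2 had Abcam and H3K4me3, and PDK2 near ITGA3 had Abcam alone.

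At the chains of the TGF-beta activating receptor, distal shared regions lay mostly upstream, a layout also found at other members. ITGB6 had 6 distal shared regions upstream and ITGAV 5, and neither had a distal shared region inside the gene. LAMB3, with 1 upstream, had none inside either, and ITGB4 had 5 upstream and 1 inside. In ITGAV, 88.2 kb in a row (97.0% of the gene) held no region of any list. The longest such stretch made up 90.6% of LAMB3 and 90.0% of ITGB4, against 49.2% of ITGB6. In ITGB6, 3 regions of a single antibody lay inside the gene, with a longest empty stretch of 49.5 kb.

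The widest region in these loci lay in the upstream flank of ITGB6. The Abcam region, chr2:160219448-160231035 (hg38), was 11588 bp wide, and the CST region, chr2:160219724-160230987, was 11264 bp wide and lay wholly inside it. Their overlap made up 97.2% of their union, against a median of 71.5% over the shared regions of the 9 loci and 73.6% over all shared regions. It began 19135 bp before the TSS of ITGB6, between genes, and met no H3K4me3. Among 21380 distal shared Abcam regions it ranked 1 by width, and it ranked 4 in the whole Abcam list and 5 in the CST list. It was named for its width, so the rank is a description. On the side of the gene lay shared regions of 2422, 4337 and 1300 bp (Abcam), and beyond it lay regions of 1644 and 1881 bp. The locus of ITGB6 was covered by both antibodies over 11.9% of its length, more than at 98.0% of genes, while H3K4me3 covered 1.65%.

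Inside the gene bodies, ITGA6 had 7 distal shared regions, ITGB1 6, ITGA2 5, LAMA3 5, ITGA3 2 and ITGB4 1. The annotated body of ITGB1 reaches beyond its protein-coding starts. Its regions with middles at -6139 and -13257 bp from the most upstream of these starts lay before all of them. All of its distal body regions except that at chr10:32950498 lay upstream of the start used by 22 transcripts. The 40.2 kb at the far end of ITGA6 held no region of any list. The widest in a gene body was in an intron of ITGA6, chr2:172437449-172443520 (Abcam, 6072 bp) with 5665 bp of CST, and ranked 98 of the 21380. The next were in introns of ITGB1, at 4079 bp (Abcam) and 4238 bp (CST), and ITGA2, at 3481 and 3627 bp. None of these 3 met H3K4me3. In LAMA3, 4 of the 5 followed the first start group, beginning between 4083 and 29467 bp after the nearer of its 2 TSSs. The fifth lay 4635 bp before an internal start, and 107 kb between the 4 and the fifth was empty of all 3 lists. The 2 downstream regions were at ITGB6, 2872 bp wide (Abcam), and at ITGA3, 2969 bp wide, inside PDK2.

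**Figure D4:**
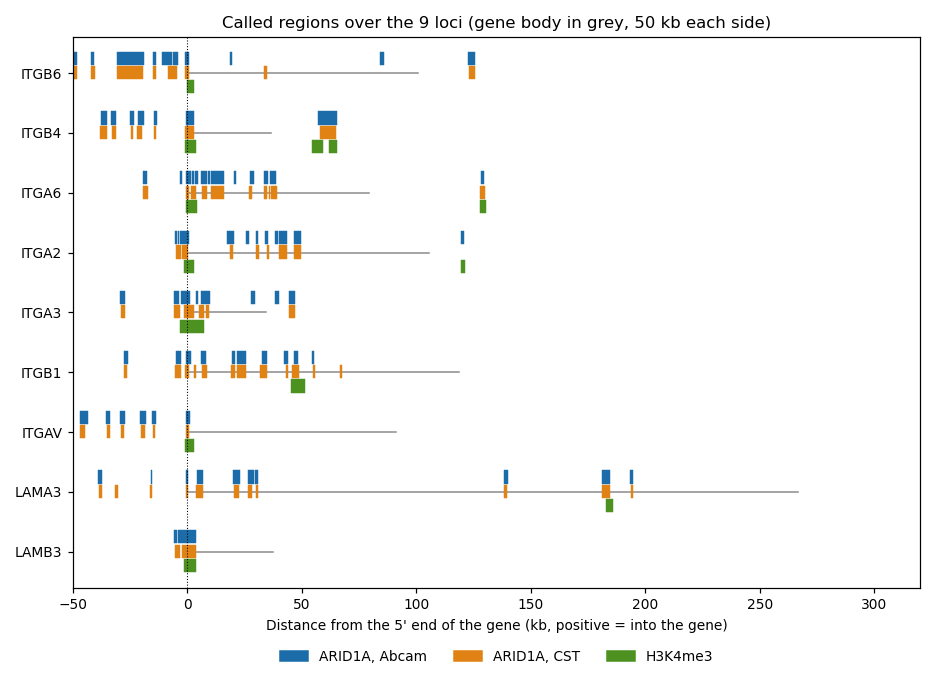
Called regions over each locus, with the distance from the 5′ end of the gene in kb on the horizontal axis, a grey line for the gene body, and blue, orange and green blocks for Abcam, CST and H3K4me3 regions. The 11588 bp block left of ITGB6 is the widest, regions of ITGAV lie left of the gene and at its start, and H3K4me3 of LAMA3 lies at an internal start 183567 bp from the first.

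Sequence was read from hg38 in the widest distal regions. AP-1 is a family of transcription factors whose word (TGAGTCA, or TGACTCA on the other strand) was searched on both strands. All of its occurrences where the antibodies overlapped in the wide ITGB6 and ITGA6 regions are shown with 12 bases on either side, the word in capitals, since the 300 bases at the centre of both regions held none. The choice to show them was made after the centres had been searched.
ITGB6 upstream, chr2:160220192-160220222, plus strand: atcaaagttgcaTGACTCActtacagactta
ITGB6 upstream, chr2:160224247-160224277, plus strand: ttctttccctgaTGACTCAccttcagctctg
ITGB6 upstream, chr2:160224283-160224313, plus strand: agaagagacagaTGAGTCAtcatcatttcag
ITGB6 upstream, chr2:160228851-160228881, plus strand: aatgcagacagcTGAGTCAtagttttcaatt
ITGB6 upstream, chr2:160229808-160229838, plus strand: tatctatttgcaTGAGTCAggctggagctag
ITGA6 intron, chr2:172437621-172437651, plus strand: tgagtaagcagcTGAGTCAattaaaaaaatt
ITGA6 intron, chr2:172439456-172439486, plus strand: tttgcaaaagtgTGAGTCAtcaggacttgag
ITGA6 intron, chr2:172442210-172442240, plus strand: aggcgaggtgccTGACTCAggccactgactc
ITGA6 intron, chr2:172442223-172442253, plus strand: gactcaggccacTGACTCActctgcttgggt

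The ITGB6 region thus had 5 AP-1 words, at 0.444 per kb, and the ITGA6 region 4, at 0.706 per kb. In ITGB6 the central pair lay 36 bp apart and in ITGA6 the last pair 13 bp apart. Over all distal shared regions the value was 0.612 per kb, and over the 54 of the 9 genes it was 0.633 per kb. The width of the ITGB6 region was not matched by a higher density of the word. The centre of the ITGB6 region, without any AP-1, TEAD or SP/KLF word, was 37.0% GC. It did hold the GATA word (AGATAA or its reverse complement).
ITGB6 upstream centre, chr2:160225206-160225505, plus strand: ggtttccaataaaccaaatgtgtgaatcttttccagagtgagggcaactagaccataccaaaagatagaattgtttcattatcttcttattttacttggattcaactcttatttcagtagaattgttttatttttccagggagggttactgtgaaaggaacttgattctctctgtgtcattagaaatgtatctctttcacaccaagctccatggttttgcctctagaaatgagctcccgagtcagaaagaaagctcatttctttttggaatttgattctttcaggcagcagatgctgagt

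In the central 300 bp of the overlap, an AP-1 word was found in 14 of the 69 shared regions (20.3%). Split by place, it was in 13 of 54 distal regions (24.1%, against 29.4% of all distal shared regions) and in 1 of 15 at promoters (6.67%, against 7.53%). The 1 promoter was that of ITGB4. Over whole overlaps, which differ in length, 5 of 15 promoter regions held the word (33.3%, against 28.6%), at 0.410 per kb against 0.246. These 5 lay at ITGB4, ITGA2, LAMA3, LAMB3 and at H3-3B beside ITGB4. Of the distal regions, 37 of 54 held it over the whole overlap (68.5%, against 60.4%). In the central 300 bp, the TEAD word (GGAATG) was in 6 of 15 promoter regions (40.0%, against 13.0%). It was in 9 of 54 distal regions (16.7%, against 22.2%). The SP/KLF word was in 7 of 15 promoter regions (46.7%, against 56.3%) and in 3 of 54 distal ones (5.56%, against 7.39%). The 15 include 2 at promoters of other genes, H3-3B and PDK1. Both of these held the SP/KLF word in the centre, and neither held the AP-1 or TEAD word there. Other words, among them TGTTTAC of FOX factors (11.1% against 7.80%) and AGATAA, named for factors of the GATA family (20.4% against 20.8%), in distal regions, lay near their values over all shared regions. The GRHL word (AACNGGTT) was in 0 of 54 distal and 0 of 15 promoter regions, and it was rare over all shared regions too, at 4.22% and 1.98%.

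Median GC at the centres of the 15 promoter regions was 46.3%, against 63.3% over all shared promoter regions, with values from 35.0% at ITGB6 to 81.0%. At distal centres the medians were close, at 43.5% and 44%. The promoter counts and GC values rest on 15 regions, of which 2 lie at promoters of other genes and several share a gene. Neighbouring windows are not independent.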

How the data were processed

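RT112 cells were profiled by CUT&RUN in a single batch, with E. coli spike-in DNA and libraries prepared in a pair of batches. The study describes its results in general as from biological replicates, and whether these libraries were separate cultures is not stated. The authors trimmed reads (cutadapt), aligned them with bwa-mem2, removed duplicates (Picard) and reads that did not map uniquely (samtools), scaled replicates by spike-in, called regions with SEACR, kept only a small top fraction of the peaks and merged replicates with bedtools. The methods give SEACR's relaxed mode while the deposited lists are named stringent, so the threshold is uncertain. The submitters' processing notes also name bcl2fastq and deepTools, and hg38. Versions are not given in the sources used here. The deposited lists hold chromosome, start and end, without signal, score or count.

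Positions were compared with GENCODE 44 (hg38). Regions off chromosomes 1 to 22 and X (152 Abcam, 159 CST, 14 H3K4me3) were left out, and none ran past a chromosome end. Overlap meant at least 1 bp. Only width ranked regions. Words were searched on both strands in the central 300 bp of each Abcam and CST overlap, and the AP-1 word also over the whole overlap. Python 3.11.15, pysam 0.24.0, numpy 2.4.6, pandas 2.3.3, scipy 1.17.1 and matplotlib 3.10.9 were used, and overlap code was tested on simulated data. No test between groups was possible. The genes, lists, words and rules were chosen with earlier results of these data known. Named outside the 9 were, in each list at most 3 genes with promoter regions of both antibodies, by the largest summed width, whether or not the antibodies overlapped there, at most 3 that lacked ARID1A, with or without H3K4me3, taken alphabetically, and neighbours with a region at their promoter. Not every gene chosen in this way is reported here. Genes named beyond this rule were chosen after their values were seen. Likeness between genes was the distance between shares of locus covered by the 3 lists. Alternatives were other windows, flanks, starts, overlap rules, widths, joining and word windows.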

Additional observations from a re-analysis of the deposited data

How the results depend on the processing

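The lists are merged, so no replicate could be left out. No paired analysis was possible because the authors' lists pool the 3 replicates. Of 48 recomputed values, 41 stayed close to the reported one, meaning within 1.5 times for counts and within the interval for shares. The 69 shared regions became 38 over gene bodies alone and 40 among the wide regions, those that reach their list's median width. The share of Abcam regions that met CST fell to 72.7% among those wide regions, and to 71.2% when the overlap had to span at least 0.5 of both regions, which took the share of CST regions that met Abcam to 80.3%. H3K4me3 overlapped 34.2% over gene bodies alone. The AP-1 word fell from 20.3% to 2.90% in the 300 bp that began 2 kb downstream of the centre window. No share over all shared regions is given for that window, so the fall cannot be called particular to these loci. With the most upstream TSS alone, 8 of 9 genes had both antibodies (ITGB1 did not), against 33.9% of all genes, and 7 had H3K4me3, against 49.5%. With wide regions alone 6 had both, against 21.4%. By density of shared regions, 5 of 9 genes were in the top 25.0% over gene bodies alone. With regions under 500 bp apart joined, 8 were. The excess of upstream over downstream distal regions held in 8 genes with 100 kb flanks (30.5% of all genes), and in 7 with wide regions alone (12.7%), with overlap of at least 0.5 of both regions (21.1%), or with regions under 500 bp apart joined (22%), all chosen after seeing the data. These shares of all genes again count genes with equal numbers in both flanks as not upstream. Depth behind these lists is unknown, so a gene without a region cannot be called unbound.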

Other observations

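The most similar locus to each gene was sought among 41 genes with all 3 lists at a promoter, the other 8 of the 9 and genes of the adhesion and marker lists, by the distance between the percentages of the locus that Abcam, CST and H3K4me3 regions covered. ITGA2 came closest to another gene, with 10.5%, 7.54% and 3.03% covered against 10.7%, 7.79% and 3.12% at UPK1B, a uroplakin gene of luminal urothelium (distance 0.340 percentage points). ITGAV was most like ITGB5 (0.905), which encodes a partner chain of alpha-v, and LAMA3 was most like TNS3 (0.912). ITGA6 was most like LAMC1 (1.61), LAMB3 like VCL (1.57) and ITGB1 like EPCAM (1.82). ITGB6 was nearest to ITGA6, at 3.13. These distances are descriptions of called positions in 1 cell line.

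Starts at exactly the same base were shared by Abcam and CST at 305 places in the genome, 2 of them in the loci of the 9 genes, namely at LAMB3 and in the upstream flank of ITGAV at chr2:186543280. The origin of these shared starts was not tested.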
